A study of Mus musculus with 31 samples.

Results

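The genes described here are 8 markers of the GABA neurons of the thalamic reticular nucleus and of the prethalamus: Pvalb, Spp1, Ecel1, Six3, Isl1, Meis2, Dlx1 and Dlx6. They were chosen by name as markers, with no measured value in the rule, though earlier results of these data were known by then. The same holds for the marker lists used below. The chosen genes are 8 of 25497 genes to which the transcripts of the series could be matched. All 8 were among the 14886 genes that passed the filter on low counts.

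The reticular nucleus is a thin shell of GABA neurons around the dorsal thalamus. It inhibits the glutamatergic relay neurons inside it and helps to gate sensory input and to generate sleep spindles. It arises from the prethalamus, the embryonic domain that also gives the zona incerta, whereas relay neurons arise from the neighbouring thalamic domain. Transcription factors of the Dlx, Isl1, Meis2 and Six3 kind act in this domain, and they act in GABA neurons of the hypothalamus and the basal ganglia as well.

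The study measured polyadenylated RNA of the thalamus in adult mice whose dams had been housed under social isolation rearing (SIR) or as controls. The offspring were 90 days old. Strain, genotype, litter and dissection borders are not stated, so littermates cannot be recognised, and p-values measure the spread between these libraries. The 31 libraries comprised 7 from SIR males, 8 from SIR females, 8 from control males and 8 from control females, and each library is named below by its group and the number in its label.

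Library totals ran from 13 to 25.74 M (mega) estimated counts with a median of 23.28 M, and control female 31 and control male 23 were the shallowest. The library labelled SIR female 5 went against its label: the Y-linked gene Ddx3y stood at 41.6 CPM (counts scaled to the library total) in it, against 31.5 to 50.2 CPM in the 15 libraries labelled male and at most 0.0481 CPM in the 15 other female libraries. All SIR libraries have lower numbers in their labels than all control libraries, so handling that followed the numbers and housing cannot be told apart. The tissue held markers of neighbouring structures in very unequal amounts. The summed level of 9 hypothalamic genes ran from 23.6 to 510 CPM over the libraries, and that of 6 choroid plexus genes from 17.3 to 1828 CPM. Relay neuron markers were high throughout, with 2274 to 4336 CPM over 9 genes.

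Pvalb encodes parvalbumin, a calcium-binding protein of fast-spiking neurons, and was the most abundant of the 8 genes at 227 ± 74.3 TPM (SD, n = 31). TPM, kallisto's abundance estimate scaled to the library, is a level per transcript length and was used to order the genes. Pvalb was above Spp1, the next gene, in 31 of 31 libraries. Its transcript Pvalb-201 took 99.64% of the Pvalb counts, and Pvalb-202, which starts at another position, took 0.36%. Because these transcripts differ in where they start, the 250 bases before each start are shown. Both lie on the minus strand of chromosome 15 and are given 5′ to 3′ from RefSeq, build GRCm38.p6, at chr15:78204238-78204487 for Pvalb-201 and chr15:78206401-78206650 for Pvalb-202.
Pvalb-201: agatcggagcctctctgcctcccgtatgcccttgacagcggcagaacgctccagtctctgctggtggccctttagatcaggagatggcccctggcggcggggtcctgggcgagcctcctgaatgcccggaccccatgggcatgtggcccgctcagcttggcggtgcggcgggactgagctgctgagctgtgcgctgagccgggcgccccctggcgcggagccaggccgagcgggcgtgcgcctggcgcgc
Pvalb-202: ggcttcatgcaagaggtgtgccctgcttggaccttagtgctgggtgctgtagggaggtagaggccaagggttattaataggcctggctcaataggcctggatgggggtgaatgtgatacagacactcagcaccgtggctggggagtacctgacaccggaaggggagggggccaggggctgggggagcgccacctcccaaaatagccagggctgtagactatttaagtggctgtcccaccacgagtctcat
The window before Pvalb-201 has 71.6% G and C and that before Pvalb-202 has 58.4%. Neither window holds any of 3 motifs searched on both strands, so no letter is in capitals. The homeodomain core TAATTA is present in 4.84% of 32851 windows of this length in the RefSeq table. The GC box GGGCGG is present in 32.7% of them. The TATA box, spelled TATAAA, is present in 12.4% and overlaps no other of the motifs.

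Pvalb-202 was not spread evenly over the libraries. It was below 1 estimated count in 26 libraries and took 0.99% to 2.38% of Pvalb counts in 4 others. In control female 31 it took 13.58%, or 113.4 estimated counts beside 721.6 of Pvalb-201. That library also stood apart in genes of skeletal muscle, a tissue known for abundant parvalbumin. These genes, 6 in all, were chosen after the Pvalb transcript values had been seen, and 5 of them were highest in this library. The muscle actin gene Acta1 was at 22.8 CPM there against 1.09 to 2.92 CPM in the other 30 libraries. The fast myosin gene Myh4 was at 9.92 CPM against at most 0.521 CPM, and muscle creatine kinase Ckm at 7.84 CPM against at most 0.219 CPM. Actn3, another muscle gene, was within the range of the others at 2.24 CPM. The part of muscle RNA in the Pvalb level of this library was not tested. With the library left out, the SIR difference of Pvalb in females moved from 0.43 to 0.37 on the log2 scale.

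Spp1 encodes osteopontin, a secreted phosphoprotein that marks core neurons of the reticular nucleus and is also made by activated microglia. It stood at 31.5 ± 11.03 TPM (SD, n = 31), and Spp1-201 took 93.45% of its counts. Spp1-201 and Spp1-205, which took 5.76%, both begin within 10 bases of one RefSeq start, as does Spp1-202. The 250 bases before that start are shown because Spp1 was the one gene of the 8 that passed a test, as given below. They lie at chr5:104434861-104435110 on the plus strand of the same build, with a TATAAA match in capitals.
Spp1-201: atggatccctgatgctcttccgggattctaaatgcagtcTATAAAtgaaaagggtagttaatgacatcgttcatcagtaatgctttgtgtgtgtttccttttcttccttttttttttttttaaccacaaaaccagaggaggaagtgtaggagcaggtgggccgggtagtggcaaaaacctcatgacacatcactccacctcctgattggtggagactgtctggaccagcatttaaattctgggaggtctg
The match lies 211 bases before the RefSeq start and is a run of letters, not a measured site. RefSeq held windows for 7 of the 8 genes, 9 windows in all. Of these, 2 held TATAAA, 1 held TAATTA and 0 held GGGCGG.

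Meis2, a homeodomain factor of the TALE class, stood at 30.3 ± 10.4 TPM, and Six3, a homeodomain factor of the anterior forebrain, at 29.8 ± 15.2 TPM. Ecel1, an endopeptidase-like membrane protein that marks neurons of the edge of the reticular nucleus, stood at 27.8 ± 13.6 TPM. The homeodomain factors Dlx1 and Dlx6 and the LIM-homeodomain factor Isl1 were lowest, at 10.9 ± 5.12, 8.48 ± 2.96 and 9.60 ± 4.09 TPM (SD, n = 31 for each gene). Ecel1 was above Dlx1, the next in order, in 31 of 31 libraries. The other neighbours were not separated: each was above the next in 17 to 20 of the 31 libraries. Spp1, Meis2, Six3 and Ecel1 therefore formed one level, and Dlx1, Isl1 and Dlx6 a lower one.

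Several of these genes were counted on more than 1 kind of transcript. For Six3, Six3-202 took 78.06% and Six3-203 21.79% of the counts. For Dlx1, the coding transcript Dlx1-201 took 66.08% and a retained-intron transcript, Dlx1-203, took 21.68%. Dlx6 was split among Dlx6-202 (45.74%), Dlx6-203 (32.01%) and Dlx6-201 (22.03%). Meis2 was spread most widely, and its leading transcript Meis2-202 took 34.04%. Transcripts antisense to Dlx1, Dlx6 and Six3 were not analysed here. No source used here says whether strand entered the counting, so reads of such a partner could be counted with these genes.

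All 8 genes varied far more between libraries of one group than most genes did. The SD of log2 CPM within groups was 0.50 for Meis2, 0.53 for Pvalb and 0.88 for Six3, against a median of 0.16 over all genes tested. Each of the 8 had a larger SD than 89.7% to 97.9% of the genes tested. As a ratio of the highest to the lowest library Six3 spanned the widest range of the 8, 8.93-fold, from 8.54 CPM in control male 23 to 76.3 CPM in SIR female 12.

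**Figure D1:**
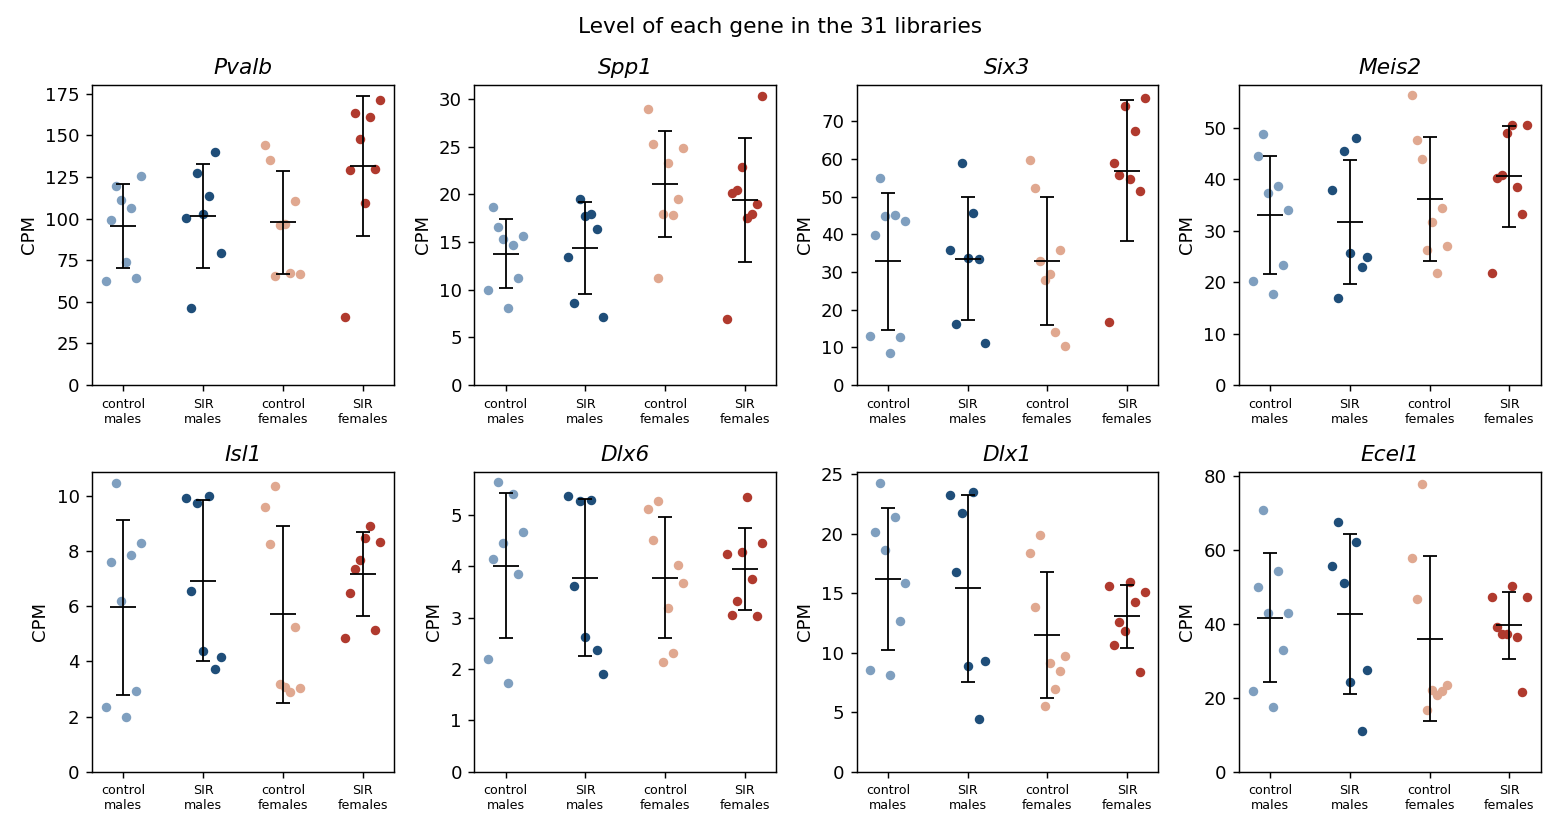
Level of each of the 8 genes in CPM (vertical axis, starting at 0) in control males, SIR males, control females and SIR females. Each point is a library, and the bar shows the mean and SD of the group. The groups overlap for every gene, and SIR female 2 lies below the other SIR females for Pvalb at 41.2 CPM and for Six3 at 16.7 CPM.

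Maternal housing was compared first, asking whether SIR offspring differed from controls. Of the 8 genes, 0 passed the threshold over both sexes, where 4.55% of all genes tested did (edgeR quasi-likelihood test, adjusted p below 0.05 over all genes). In males 0 of 8 passed, beside 1.33% of all genes, and in females 0 of 8, beside 4.62%. At an unadjusted p below 0.05 the counts were also 0 of 8 in each of these comparisons, beside 3282, 2622 and 2979 of the 14886 genes. Over both sexes 6 genes were on the higher side and 2 on the lower, with a median log2 fold change of 0.07 beside -0.01 for all genes tested. The standard errors of the 8 genes, 0.17 to 0.28 on the log2 scale, were several times the median of 0.06 over all genes tested.

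Among the markers of mature reticular neurons, Pvalb was at 41.2, 139 and 171 CPM in SIR females (lowest, median and highest) and at 65.3, 96.3 and 144 CPM in control females. Of the 8 SIR females, 7 were above the control median, and SIR female 2 was the lowest library of the series. The groups overlapped with or without that library, since control females reached 144 CPM. The log2 fold change was 0.43 ± 0.24 (SE; edgeR adjusted p = 0.328), which with 2 SE allows -0.05 to 0.91. In males Pvalb was at 46.5, 103 and 140 CPM under SIR and at 62.7, 103 and 126 CPM in controls. The medians lay close together, and the log2 fold change was 0.09 ± 0.25 (adjusted p = 0.911).

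Spp1 was at 6.96, 19.5 and 30.3 CPM in SIR females and at 11.2, 21.4 and 28.9 CPM in control females. In males it was at 7.15, 16.4 and 19.5 CPM under SIR and at 8.06, 15.03 and 18.7 CPM in controls. Within each sex the ranges overlapped almost fully. Over both sexes the log2 fold change was -0.03 ± 0.17 (adjusted p = 0.947), with -0.36 to 0.30 allowed by 2 SE. Ecel1 was at 21.5, 38.2 and 50.3 CPM in SIR females and at 16.8, 22.8 and 77.7 CPM in control females. Control females held both very low and very high Ecel1, since 5 of the 8 lay below 24 CPM while control female 20 was the highest of the series. The log2 fold change was 0.13 ± 0.35 in females and 0.03 ± 0.36 in males (adjusted p = 0.872 and 0.980).

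Of the transcription factors, Six3 had the largest log2 fold change in females, though not in males, where that of Isl1 was larger at 0.20. Six3 was at 16.7, 57.4 and 76.3 CPM in SIR females and at 10.5, 31.3 and 59.8 CPM in control females. Of the SIR females, 7 of 8 were above the control median, but the groups overlapped. The log2 fold change was 0.78 ± 0.39 (edgeR unadjusted p = 0.0535, adjusted p = 0.259), with an interval of 2 SE from 0.01 to 1.56. In males Six3 was at 11.1, 33.8 and 59.0 CPM under SIR and at 8.54, 41.7 and 54.9 CPM in controls, with a log2 fold change of 0.03 ± 0.40 (adjusted p = 0.987).

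The fit was also run with 2 principal components of the scores of 6 neighbouring-region lists added. The log2 fold change in females was then -0.14 ± 0.31 for Six3 and -0.13 ± 0.23 for Pvalb (SE; edgeR adjusted p = 0.888 and 0.852). In females, 3 of 7 midbrain markers were lower under SIR past the threshold, among them Slc6a3, the dopamine transporter (log2 fold change -4.52 ± 0.93, edgeR adjusted p = 0.00655). Slc6a3 was low in most libraries, with a median of 0.488 CPM over all of them and a highest value of 43.1 CPM. The midbrain sum was 10.4 to 25.95 CPM in SIR females and 13.6 to 86.1 CPM in control females. Control female 29 held the 86.1 CPM and control female 31 held 57.8 CPM, while the next control female was at 39.2 CPM. How far the Slc6a3 difference rests on single control libraries was not tested. The part of these regions in the Six3 and Pvalb values was not tested. Without the library labelled SIR female 5 the log2 fold change in females was 0.79 for Six3 and 0.38 for Pvalb. In bulk tissue fewer cells of a type and less RNA per cell cannot be told apart.

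For Isl1, the values were 4.86, 7.51 and 8.92 CPM in SIR females and 2.88, 4.21 and 10.4 CPM in control females, with a log2 fold change of 0.31 ± 0.33 (adjusted p = 0.642). Here 8 of 8 SIR females lay above the control median, yet the control range enclosed theirs. Dlx1 was at 8.41, 13.5 and 15.99 CPM in SIR females and at 5.56, 9.44 and 19.9 CPM in control females. Meis2 and Dlx6 had log2 fold changes of 0.17 ± 0.24 and 0.06 ± 0.23 in females. In males Isl1, Meis2, Dlx1 and Dlx6 had log2 fold changes between -0.10 and 0.20, each with an SE of at least 0.24. Their male adjusted p-values were 0.829 to 0.937.

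Whether SIR acted unequally in males and females was tested as an interaction. Of the 8 genes, 0 passed, beside 2.83% of all genes tested, and 0 of 8 passed at an unadjusted p below 0.05, beside 2284 of the 14886 genes. Six3 had the largest difference, male effect minus female effect, at -0.76 ± 0.56 on the log2 scale (edgeR adjusted p = 0.575). Its 2 SE interval ran from -1.88 to 0.36. For Pvalb the difference was -0.34 ± 0.35 and for Spp1 0.18 ± 0.33.

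**Figure D2:**
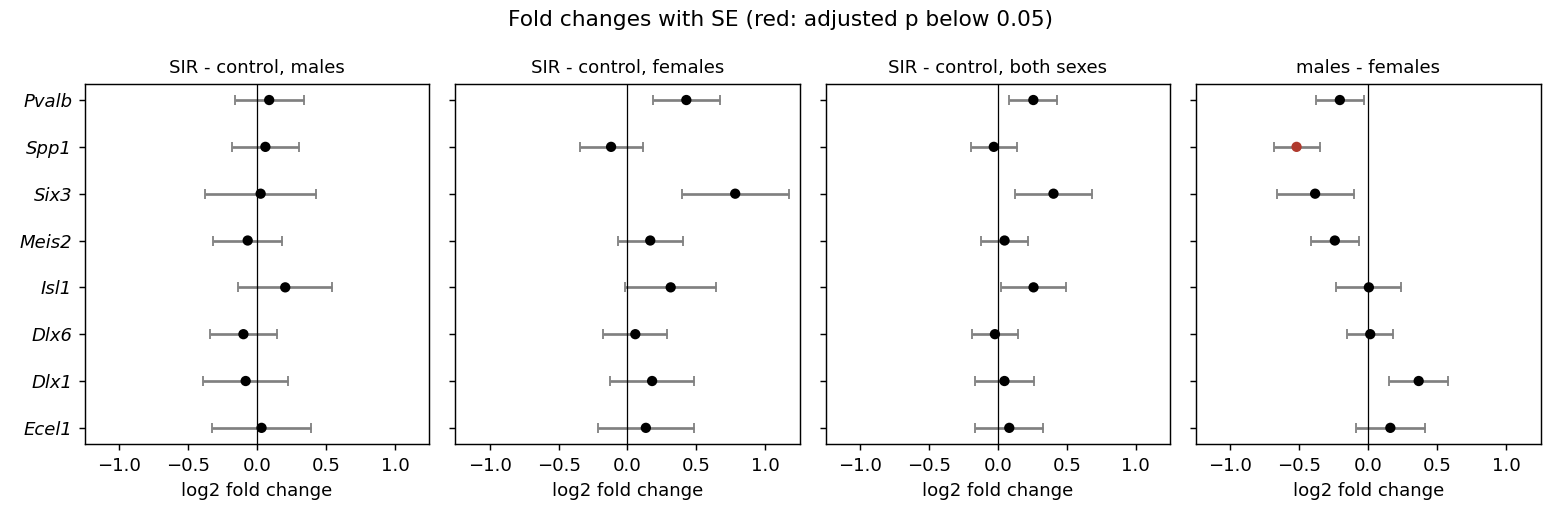
Log2 fold change (horizontal axis) of each gene in 4 comparisons, with the standard error as a bar. Red marks an edgeR adjusted p below 0.05, which holds for Spp1 between males and females at -0.52 and for no other point, while Six3 in SIR against control females reaches 0.78.

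Males were then compared with females over both housing groups. Spp1 was lower in libraries labelled male, the only gene of the 8 past the threshold, where 10.1% of all genes tested passed and 5.65% passed as lower in males. Spp1 was at 7.15, 15.3 and 19.5 CPM in males and at 6.96, 19.8 and 30.3 CPM in females. Of the 15 males, 15 lay below the female median, although SIR female 2 and control female 20 lay among the low males. The log2 fold change was -0.52 ± 0.17 (edgeR adjusted p = 0.0452), a mean of 14.1 ± 4.09 against 20.2 ± 5.90 CPM (SD, n = 15 and 16). The call sat close to the threshold. It was lost when any one of 21 of the 31 libraries was left out, with adjusted p from 0.0110 to 0.0782 over the 31 such fits, and without the library labelled SIR female 5 it was 0.0553. The log2 fold change stayed between -0.58 and -0.46 in all alternatives run.

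The other genes did not pass between the sexes. Dlx1 was higher in males by 0.37 ± 0.22 (adjusted p = 0.286) and Six3 lower by 0.39 ± 0.28, given as a log2 fold change of -0.39 (adjusted p = 0.397). Pvalb had a log2 fold change of -0.21 ± 0.17 and Meis2 of -0.24 ± 0.17. Isl1 and Dlx6 were at 0.00 ± 0.24 and 0.01 ± 0.17. With the region components in the fit, 3 of the 8 passed, beside 21.7% of all genes tested in that fit: Spp1 at -0.53 (adjusted p = 0.0163), Ecel1 at 0.40 (0.0340) and Dlx1 at 0.54 (0.00550). Neighbouring tissues also differed between the sexes. Among 5 basal forebrain markers 3 were lower in males, beside 5.65% of all genes tested. Chat, the enzyme of acetylcholine synthesis, was among them at -1.94 ± 0.45 (edgeR adjusted p = 0.00784), with a median of 0.912 CPM over the 31 libraries. Of 6 choroid plexus markers 3 were lower in males, beside the same 5.65%. The choroid sum was 17.3 to 70.3 CPM in males and 23.4 to 1828 CPM in females. Control female 20 held the 1828 CPM, and SIR female 11 was next at 268 CPM. Of the 5 microglial markers tested, 1 was lower in males, beside the same 5.65%. It was Lpl, a lipoprotein lipase, at -0.53 ± 0.11 (edgeR adjusted p = 0.00242). The microglial sum was 85.8 to 109 CPM in males and 90.3 to 115 CPM in females, and its part in the Spp1 value was not tested.

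Genes that act beside these markers were followed from lists. Gad1 and Gad2, which encode the enzymes of GABA synthesis, and Slc32a1, the vesicular GABA transporter, passed in 0 of the 5 comparisons. Over the 31 libraries Gad1 ranged from 157.2 to 603.5 CPM, Gad2 from 154.1 to 410.2 CPM and Slc32a1 from 65.53 to 169.2 CPM. Of 10 other transcription factors of forebrain GABA neurons, among them Dlx2 and Dlx5, 0 passed in any comparison, with log2 fold changes under SIR over both sexes from -0.28 to 0.24. Of 9 genes of reticular physiology (T-type calcium channels, potassium channels, receptors and others), 0 passed for housing in either sex or over both. For the interaction 1 of the 9 passed, beside 2.83% of all genes tested. It was Gabra3, the GABA-A receptor subunit that reticular neurons use, with a male minus female effect of -0.60 ± 0.14 (edgeR adjusted p = 0.0136). The SIR effect on Gabra3 was -0.30 ± 0.10 in males and 0.30 ± 0.10 in females, neither past the threshold on its own. Between the sexes 1 of the 9 passed, as lower in males, beside 5.65% of all genes tested. This was Erbb4, a neuregulin receptor, at -0.25 ± 0.08 (edgeR adjusted p = 0.0438). Of 9 relay neuron markers, 3 rose in SIR females, beside 4.62% of all genes tested, and 1 was lower in SIR males, beside 1.33%. The marker lower in males was Necab1, at -0.79 ± 0.19 (edgeR adjusted p = 0.0316). For the interaction 3 of the 9 passed, beside 2.83%, among them Necab1 and the thalamic factor Gbx2, the latter at -0.95 ± 0.20 (edgeR adjusted p = 0.00725). The interaction values of the 9 ran from -1.63 to 0.18 with a median of -0.29, beside 0.00 for all genes tested.

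The 8 genes did not vary from library to library as one group. After group means were removed, Spearman's rho was positive for 28 of 28 pairs and had an adjusted p below 0.05 for 23 (permutation within groups, 100000 resamples, Benjamini-Hochberg over the 28 pairs). For 22 of them Pearson's r passed as well. Ecel1 and Dlx1 were the closest pair, with r = 0.961 and rho = 0.962 (permutation p = 1e-05 for each, the smallest the permutations can give; adjusted 2.55e-05 and 2.8e-05). Without the 2 libraries farthest from the median of Ecel1, control female 20 and SIR male 14, r was 0.945. Dlx1 and Dlx6 followed at r = 0.890 and rho = 0.911 (permutation p = 1e-05, adjusted 2.55e-05 and 2.8e-05), with r = 0.916 without the farthest 2. In each of the 4 groups Ecel1 and Dlx1 gave an r between 0.894 and 0.985. In control males alone all 8 genes ran together, and the lowest r of any pair was 0.755, for Pvalb with Dlx6. Whether control males differed from the other groups in this was not tested.

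Pvalb and Spp1, both markers of mature reticular neurons, gave r = 0.820 and rho = 0.753 (permutation p = 1e-05 and 2e-05, adjusted 2.55e-05 and 4e-05) and r = 0.697 without SIR male 4 and SIR female 2. Six3 had a rho of 0.796 with Pvalb (permutation p = 1e-05, adjusted 2.8e-05), above that of Spp1, although this value spans a gap in the Six3 levels. Pvalb and Ecel1 were not related past the threshold, at r = 0.007 and rho = 0.177 (permutation p = 0.969 and 0.368, adjusted 0.969 and 0.368), and r = 0.253 without the same 2 libraries. Within groups their r ran from -0.457 in SIR males and -0.289 in SIR females to 0.790 in control males. Pvalb with Dlx1 gave r = 0.087 and rho = 0.212 (permutation p = 0.644 and 0.275, adjusted 0.694 and 0.286), with r = 0.284 without the farthest 2. Isl1 and Meis2 stood between the pairs. Isl1 had a rho of 0.842 with Ecel1 and 0.526 with Pvalb, and Meis2 of 0.683 and 0.646.

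Single libraries with Pvalb and Ecel1 far apart in rank were SIR male 14, SIR female 2, SIR male 4 and control female 20, named after their values were seen. SIR male 14 had the lowest Ecel1 (10.9 CPM) and Dlx1 (4.40 CPM) of the series and the highest Pvalb of the males (140 CPM). Its hypothalamic sum was the lowest at 23.6 CPM and its relay sum was 4329 CPM. SIR female 2 had the lowest Pvalb (41.2 CPM) and Spp1 (6.96 CPM), while its Ecel1 was 47.2 CPM and its hypothalamic sum, 411 CPM, was the highest among SIR females. SIR male 4 had Pvalb at 46.5 CPM and Ecel1 at 67.4 CPM, and control female 20 had Pvalb at 65.3 CPM beside the highest Ecel1 of the series, 77.7 CPM.

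**Figure D3:**
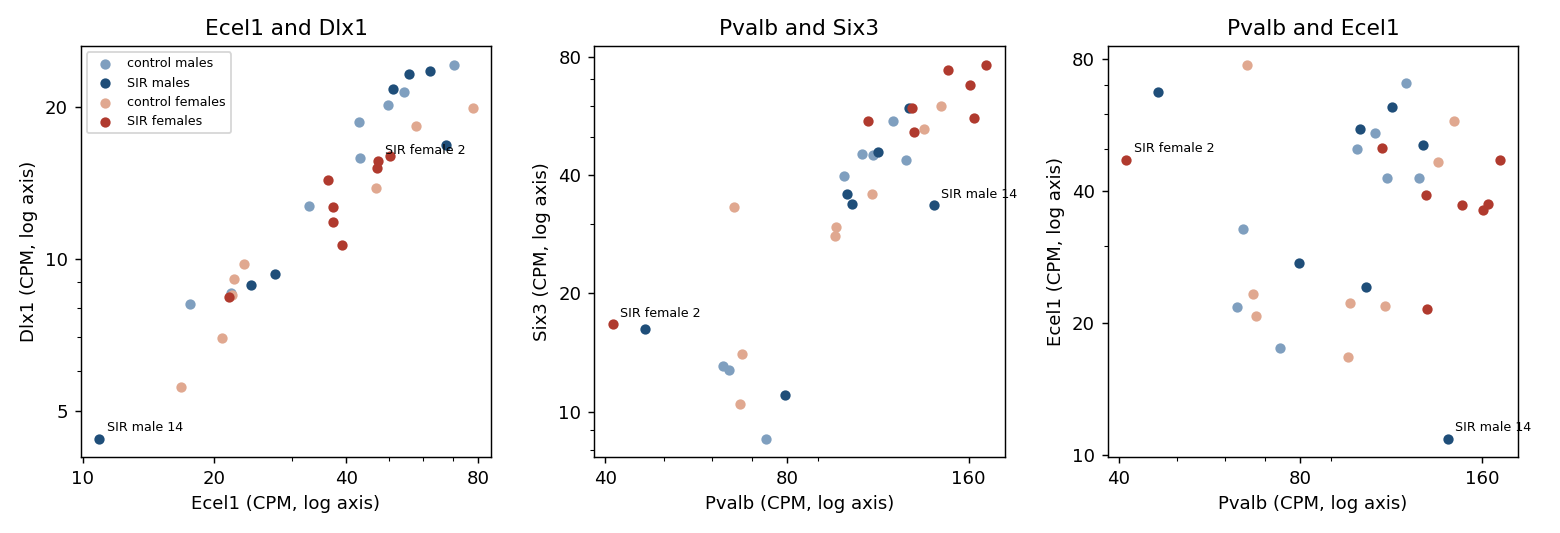
Levels of Ecel1 and Dlx1, Pvalb and Six3, and Pvalb and Ecel1 in CPM on log axes, with each point a library coloured by group. Ecel1 and Dlx1 lie along a line, Pvalb and Ecel1 do not, and for Six3 a gap separates 8 libraries at 16.7 CPM or less from 23 at 27.99 CPM or more.

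The levels of Six3 fell into separate sets of libraries, so its relations were computed within each. In 8 libraries, from all 4 groups, Six3 was between 8.54 and 16.7 CPM, and in the other 23 it was between 27.99 and 76.3 CPM. This division was made after the values were seen, and 12 relations of this kind were computed. Unlike the relations over 31 libraries, these kept the group means, and libraries were permuted without regard to group. Differences between the groups therefore enter them. In the 23 libraries Six3 and Pvalb gave r = 0.753 and rho = 0.801 (permutation p = 5e-05 and 2e-05, adjusted 0.0006 and 0.00024), and r = 0.702 without the 2 farthest libraries. Six3 and Meis2 gave r = 0.696 and rho = 0.715 there (permutation p = 0.00023 and 0.00018, adjusted 0.00092 and 0.00054), and r = 0.619 without the farthest 2. In the 8 libraries of low Six3 the relation with Pvalb had the opposite sign, at r = -0.820 and rho = -0.762 (permutation p = 0.0123 and 0.0379, adjusted 0.0204 and 0.0569), and r = -0.803 without the farthest 2. Six3 was not related past the threshold to Spp1 or Meis2 in these 8 libraries, at r = -0.162 and -0.173 (permutation p = 0.699 and 0.677, adjusted 0.699 for each). Without the farthest 2 the values were r = -0.315 and -0.949, so that of Meis2 depended on 2 libraries. In the 23 others Six3 and Spp1 gave r = 0.501 (permutation p = 0.0136, adjusted 0.0204). The range of Six3 in the 8 libraries is narrow.

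Divided in the same way at 30 CPM of Ecel1, Ecel1 and Dlx1 kept their relation on both sides. It was r = 0.760 and rho = 0.798 in the 20 libraries above (permutation p = 0.00015 and 9e-05, adjusted 0.0009 and 0.00036), with r = 0.768 without the farthest 2. It was r = 0.910 and rho = 0.936 in the 11 below (permutation p = 0.00072 and 8e-05, adjusted 0.00216 and 0.00036), where r fell to 0.578 without the farthest 2. Ecel1 with Dlx6 and Isl1 passed above the division, at r = 0.622 and 0.570 (permutation p = 0.00334 and 0.00653, adjusted 0.00802 and 0.0131). Below it they did not, at r = 0.237 and 0.186 (permutation p = 0.503 and 0.598, adjusted 0.670 and 0.699). Without the farthest 2, Dlx6 had r = 0.587 above and 0.176 below, whereas Isl1 had r = 0.364 above and 0.554 below. The contrast between the sides was therefore not kept for Isl1.

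**Figure D4:**
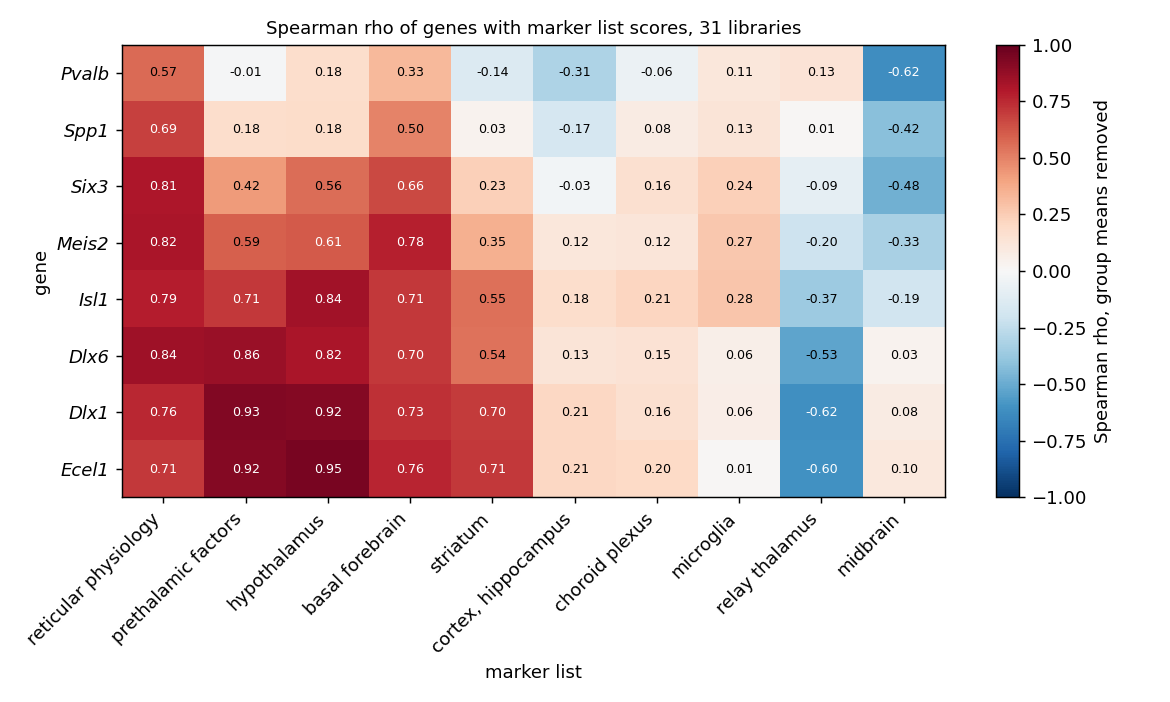
Spearman's rho between each of the 8 genes (rows) and the mean score of 10 marker lists (columns) over 31 libraries, with group means removed. Colour runs from blue at -1 to red at 1, and hypothalamic markers go from 0.18 with Pvalb and Spp1 to 0.95 with Ecel1.

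The same order of genes appeared in their relation to markers of neighbouring regions, computed for 96 pairs of a gene and a list. The hypothalamic list had r = 0.954 and rho = 0.951 with Ecel1 and r = 0.923 and rho = 0.921 with Dlx1 (permutation p = 1e-05 for each, the smallest they can give; adjusted 6e-05 for r and 5.33e-05 for rho). Without the 2 farthest libraries r was 0.927 and 0.893. With Pvalb it had r = -0.040 and rho = 0.177 (permutation p = 0.828 and 0.364, adjusted 0.855 and 0.493), and r = 0.251 without the farthest 2. With Spp1 it had r = -0.058 and rho = 0.182 (permutation p = 0.762 and 0.350, adjusted 0.832 and 0.487), and r = 0.018 without them. These values near 0 combined groups of opposite sign. With the hypothalamic list Pvalb had r = 0.845 in control males, 0.188 in control females, -0.420 in SIR males and -0.650 in SIR females, and Spp1 had 0.912, -0.283, -0.078 and -0.730 in the same order. In control males Ecel1 and Dlx1 had r = 0.974 and 0.975, so there all 4 genes ran with the list. The differences between the groups were not tested. Ecel1 and Dlx1 moved with this list, which holds Trh, Hcrt and Avp among others, and how much of their RNA came from the hypothalamus was not tested.

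Relay markers ran against Ecel1, at r = -0.676 and rho = -0.602 (permutation p = 0.00035 and 0.00237, adjusted 0.00105 and 0.00569), with r = -0.547 without the farthest 2. Midbrain markers ran against Pvalb, at r = -0.768 and rho = -0.621 (permutation p = 1e-05 and 0.00065, adjusted 6e-05 and 0.00189), with r = -0.711 without the farthest 2. The list of other forebrain GABA factors divided the 8 genes: its rho was 0.93 with Dlx1 and 0.92 with Ecel1, but -0.01 with Pvalb and 0.18 with Spp1. The striatal list did so too, with rho of 0.706 with Ecel1 and 0.700 with Dlx1, but -0.138 with Pvalb and 0.033 with Spp1. The lists of GABA synthesis and transport and of reticular physiology did not divide them in this way. For GABA synthesis and transport rho ran from 0.531 with Pvalb to 0.839 with Meis2, and was 0.662 with Ecel1. For reticular physiology rho ran from 0.570 with Pvalb to 0.844 with Dlx6, and was 0.706 with Ecel1. Within groups some were weak, as for Ecel1 in SIR females (r = 0.263 and 0.185) and Pvalb in control females (r = 0.196 and 0.163).

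The genes whose pattern over the 31 libraries was most like each of the 8 were taken as the 3 of highest Spearman's rho, after group means were removed, among 13544 genes with a mean of at least 1 CPM. These values are descriptions. For Pvalb they were Gm2115, the nuclear receptor gene Esrrg and the secreted-protein gene Lgi2 (rho 0.915, 0.871 and 0.871). For Spp1 they were Lgi2, Esrrg and Gad1 (0.863, 0.842 and 0.833), so 2 were shared with Pvalb. For Six3 they were Lancl3, Ubash3b and Gad1 (0.939, 0.933 and 0.930). For Meis2 they were Bmper, Gad1 and Six3 (0.899, 0.882 and 0.862). Gad1, which encodes a GABA-synthesizing enzyme, was thus near 3 of the 8.

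For Ecel1 the nearest genes were Dlx2, Dlx1 and the kinase gene Stk32a (rho 0.962, 0.962 and 0.961), and for Dlx1 they were Ecel1, Dlx2 and Stk32a (0.962, 0.948 and 0.940). Dlx1 and Dlx2 are neighbouring genes of one homeobox pair. Dlx6 had Dlx5, its own neighbour, first (0.933), then Dlx1 and Dlx2 (0.911 and 0.896). Isl1 differed from these, with the thyrotropin-releasing hormone gene Trh, the somatostatin gene Sst and the cholecystokinin receptor gene Cckar (0.916, 0.897 and 0.887). Trh is itself in the hypothalamic list and Sst in the list of reticular physiology. Among the 8 genes themselves, Dlx1 ranked 2 of 13544 for Ecel1, whereas Pvalb ranked 3935.

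**Figure D5:**
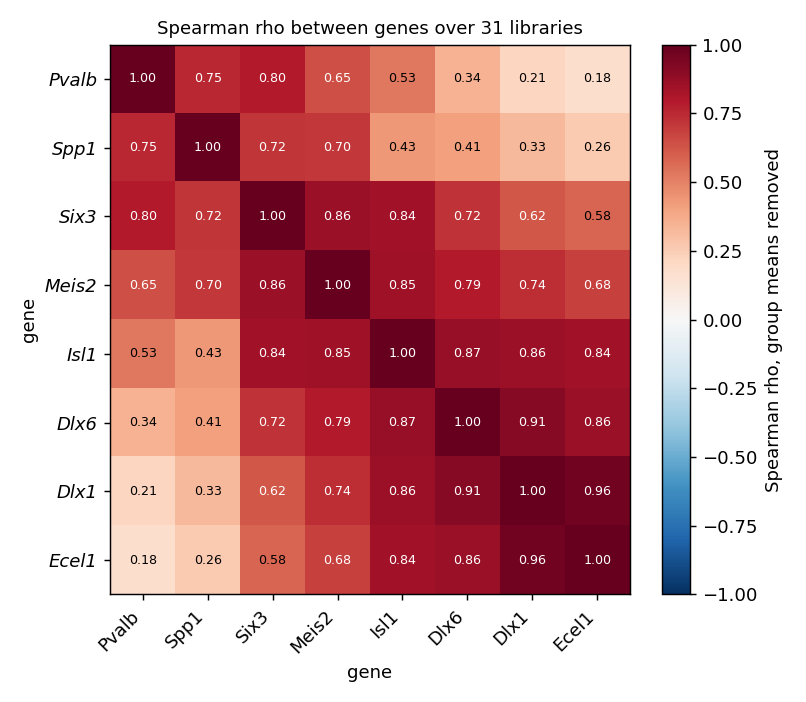
Spearman's rho for each pair of the 8 genes over 31 libraries after group means were removed, on a colour scale from -1 to 1. The values reach 0.96 for Ecel1 with Dlx1 and are lowest for Pvalb with Ecel1 (0.18), and those of Six3 span the gap in its levels.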

How the data were processed

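Polyadenylated RNA of 31 thalamus libraries was sequenced from kits named in the labels' protocols (Qiagen AllPrep extraction, Illumina stranded mRNA ligation). The submitters' processing notes name FastQC, kallisto and the build GRCm39, with no versions in the sources used here. The headers of each deposited table name 105878 transcripts with an effective length, an estimated count and a TPM. The estimated counts deposited by the authors are kallisto's and need not be whole. The deposited TPM are scaled by kallisto for length and depth.

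Transcripts were matched by identifier to GENCODE M21, which annotates the older build GRCm38 and was used for names only. Of the transcripts, 99.12% matched, and the 929 others (0.69% to 0.76% of each library) were dropped. Estimated counts were added up by gene, then rounded. CPM are these sums scaled to the library total over the genes that passed the filter, adjusted by the TMM factor of the library. The main test was that of edgeR 4.0.16 in R 4.3.3 (filterByExpr, TMM scaling, 1 mean for each of 4 groups, robust quasi-likelihood test, Benjamini-Hochberg over all genes, threshold 0.05), so 14886 genes shared 5 comparisons. Standard errors are the log2 fold change over the square root of F. Intervals are 2 SE wide on each side. limma 3.58.1, DESeq2 1.42.0, other scalings, filters and offsets, region components as covariates and omitted libraries were alternatives. Correlations used log2 CPM with a prior count of 2, and a list score is the mean of its genes after centring each. The methods were checked on simulated data.

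The 8 genes and the lists were chosen with earlier results of these data known. Named genes are the 8 genes in every comparison, at most 4 of each other list past the threshold by smallest p, the 3 genes most like each of the 8, and Ddx3y and Eif2s3x as a check of the sex labels. Eif2s3x, X-linked, was at 148 CPM in the library labelled SIR female 5, against 144 to 170 CPM in males and 212 to 260 CPM in the other females. The 105 pairs of libraries within groups all differed by more than sampling noise, with a chi-square per gene of at least 5.36. None therefore looked like a repeat sequencing of another, and each was taken as 1 sample. This cannot show that the libraries are independent, since littermates would differ as well. Promoter windows were taken from the RefSeq table, and their bases are counted back from the RefSeq start. Only windows with an annotated transcript starting within 10 bases of the RefSeq start, and overlapping no transcript, were printed. Some genes of the lists are not reported here.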

Additional observations from a re-analysis of the deposited data

Results flagged for a closer look

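Of 32 groups of values examined for a library far from the rest (8 genes in 4 groups), 1 held such a library, and chance flags about 1 in 20 groups. Six3 was at 16.7 CPM in SIR female 2, and the nearest of the other 7 SIR females was at 51.4 CPM. The gap was 0.583 of the range of the group, above the critical value of 0.526 for 8 samples. The same library had the lowest Pvalb (41.2 CPM) and Spp1 (6.96 CPM) of the series. Without it the log2 fold change of Six3 in females was 0.92 with an edgeR adjusted p of 0.178.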

How the results depend on the processing

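No paired analysis was possible because the numbers in the labels are unique to each library and the groups share none. For housing and the interaction, the count of the 8 genes past the threshold was 0 under all 43 alternatives run. Between the sexes the count was 1 and became 0 with no filter, on log2(TPM + 1), without the 2 shallowest libraries and without the 8 libraries of distant number, became 3 with region components, and lay between 0 and 1 when each library was left out. Of 1720 alternative values of the 40 log2 fold changes, 0 turned a called direction, 25 lost a call (all of Spp1 between the sexes) and 2 gained one (Ecel1 and Dlx1 with region components). Counts over all genes moved more. Over both sexes 677 genes passed, but 382 with no filter, 1034 by DESeq2, 1276 by limma-voom, 312 on log2(TPM + 1), 392 without the 2 shallowest libraries, 0 without the 8 distant ones (2031 at an unadjusted p below 0.05), and 224 to 1042 with 1 library left out. In males 198 passed, but 79 with no filter, 519 by DESeq2, 638 by limma-voom, 93 on log2(TPM + 1), 677 with region components, 379 and 542 without the 2 shallowest and the 8 distant libraries, and 0 to 506 with 1 left out. In females 688 passed, but 1167 by limma-voom, 270 on log2(TPM + 1), 228 with region components, 457 and 45 without the 2 shallowest and the 8 distant ones, and no fewer than 360 with 1 left out. For the interaction 422 passed, but 709 by limma-voom, 223 on log2(TPM + 1), 277 with length offsets and 227 with region components. Between the sexes 1503 passed, but 2985 by limma-voom, 688 on log2(TPM + 1), 3229 with region components and 516 without the 8 distant libraries. Upper-quartile scaling changed the split over both sexes from 261 higher and 416 lower to 446 and 306, and in males from 42 and 156 to 110 and 94 and for the interaction from 161 and 261 to 219 and 225. The causes were not tested.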
